A study of Mus musculus with 9 samples.

Results

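The genes described here are those of Wnt signaling in mouse skin: the Wnt ligands, the Frizzled and LRP receptors, the R-spondins, the secreted antagonists, β-catenin with its TCF and LEF partners, and a set of feedback and target genes. They were chosen by symbol. Of 57 symbols named, 56 were found among 55382 genes and Sfrp3 was not. Sfrp3 is another name of Frzb, which the table lists and which is counted here among the other genes of the pathway, at 0.07 to 1.62 FPKM over the 9 libraries. They comprise 19 ligands, 10 Frizzled receptors, 2 LRP co-receptors, 4 R-spondins, 10 antagonists, 5 genes of β-catenin and its partners, and 6 feedback and target genes. Levels are given in FPKM, the fragments assigned to a gene divided by the length of its transcript and by the total of the library. A level of 1 FPKM in 3 or more libraries was required for a test, which 42 of the 56 and 14254 of all genes met. The other 14 are given by level only: 10 of the 56 stayed under 1 FPKM in every library, and Wnt1 and Dkk1, both among those 10, were listed at 0 in all 9.

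Skin of female C57BL/6 mice was compared in 3 groups of 3 libraries. In the EXO group, mice with fibrosis induced by bleomycin received 15 µg of exosomes, also called extracellular vesicles, for 7 days. These small membrane particles had been shed by mesenchymal stem cells from bone marrow. In the BLM group the same model was made, and these mice received PBS in place of vesicles per the study's methods, while the labels name no treatment. Bleomycin, an anticancer drug that scars tissue, had been injected under shaved back skin in both groups, at 1 mg/mL in 100 µL over 28 days. The NORMAL group received PBS without bleomycin. The sources used here give no age and do not state whether the libraries came from different mice, so the p-values rest on a spread between samples that may be technical. Libraries are called EXO1 to EXO3, BLM1 to BLM3 and NORMAL1 to NORMAL3, and 3 stands for the title that carries no number.

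Wnt proteins are secreted lipid-modified ligands that bind Frizzled receptors and the co-receptors LRP5 and LRP6. In the canonical branch this stops the degradation of β-catenin, which enters the nucleus and acts with TCF and LEF factors on genes such as Axin2. R-spondins raise the amount of Frizzled at the cell surface, whereas secreted antagonists bind the ligands or the co-receptors. In skin the pathway is known for starting and sustaining hair growth, for renewing the epidermis, and for activating fibroblasts in fibrosis.

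The libraries differed in depth and in makeup. An estimated 12.7 M to 24.8 M fragments lay behind each, with steps of 2 times or 0.5 times that size nearly as frequent. Mitochondrial transcripts took 18.7% to 50.9% of FPKM, with the highest share in BLM2. In bulk skin, fewer cells of a type and less RNA per cell cannot be told apart. Of a list of 11 hair matrix genes, 10 were found, and their summed level was 14.1 to 17.4 FPKM in EXO, 82.6 to 441 FPKM in BLM and 4.95 to 173 FPKM in NORMAL. The cell cycle list (10 of 10 found) summed to 32.7 to 89.4 FPKM in EXO, 61.0 to 208 FPKM in BLM and 24.7 to 46.9 FPKM in NORMAL. The basal epidermis list (5 of 5) summed to 4400 to 7728 FPKM in EXO, 757 to 3040 FPKM in BLM and 683 to 5719 FPKM in NORMAL, and the skeletal muscle list (10 of 10) to 7864 to 42284 FPKM in EXO, 6122 to 10927 FPKM in BLM and 8601 to 61176 FPKM in NORMAL. No marker of these lists was at 0 throughout a group. Their part in the results on Wnt genes was not tested.

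**Figure D1:**
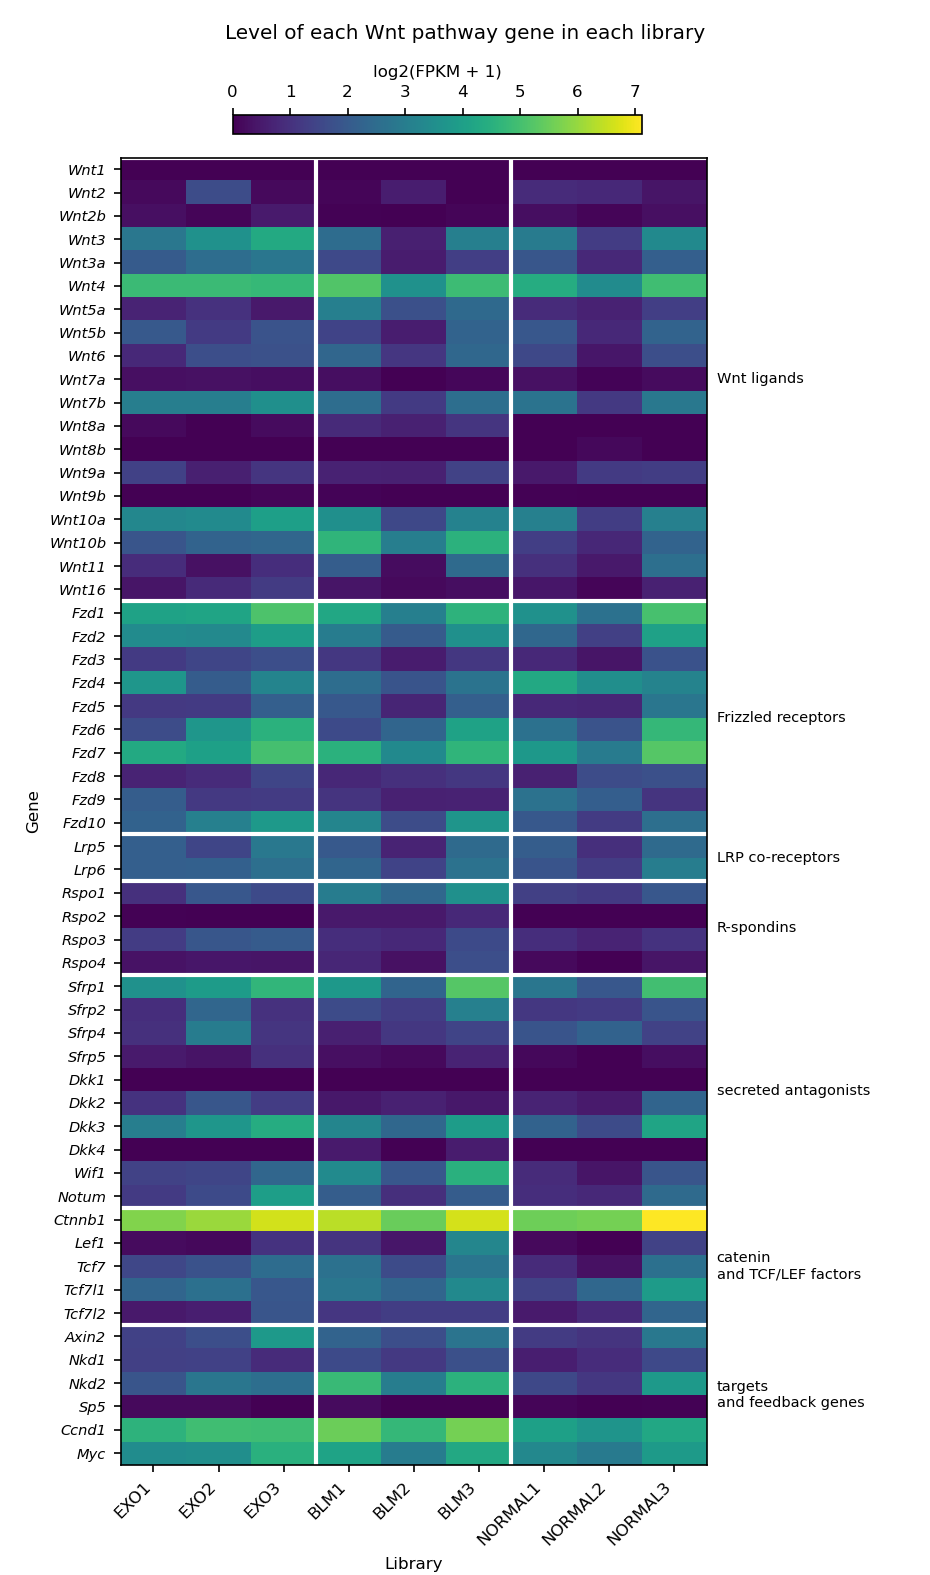
Level of each of the 56 Wnt genes (rows, grouped by role) in each of the 9 libraries (columns), as log2(FPKM + 1) on a color scale that starts at 0. Ctnnb1 was the most abundant in all 9 libraries, and the rows of Wnt10b, Wnt5a and Rspo1 are brightest in the 3 BLM libraries.

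Wnt10b, Rspo1, Wif1 and Nkd2 are shown first by the sequence before their transcription start, since they were higher in BLM than in NORMAL and lower in EXO than in BLM at the thresholds of the study and had an entry in RefSeq's promoter table (GRCm38.p6). Wnt5a shared this pattern but had no entry. Of the 56 genes, 37 were matched to the table. The windows are the 250 bases before the start, 5′ to 3′ on the gene's strand: Wnt10b at chr15:98778151-98778400 (minus), Rspo1 at chr4:124986180-124986429 (plus), Wif1 at chr10:121033754-121034003 (plus) and Nkd2 at chr13:73847632-73847881 (minus). Capitals mark CTTTG, the core that TCF and LEF factors recognise, and GGGCGG, the box of the factor Sp1, on either strand, and the motifs do not overlap there.
Wnt10b: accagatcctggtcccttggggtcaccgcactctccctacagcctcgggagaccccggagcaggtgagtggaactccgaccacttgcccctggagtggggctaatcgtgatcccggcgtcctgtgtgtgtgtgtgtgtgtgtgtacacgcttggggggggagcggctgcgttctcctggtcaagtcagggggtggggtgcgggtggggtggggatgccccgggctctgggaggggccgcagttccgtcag
Rspo1: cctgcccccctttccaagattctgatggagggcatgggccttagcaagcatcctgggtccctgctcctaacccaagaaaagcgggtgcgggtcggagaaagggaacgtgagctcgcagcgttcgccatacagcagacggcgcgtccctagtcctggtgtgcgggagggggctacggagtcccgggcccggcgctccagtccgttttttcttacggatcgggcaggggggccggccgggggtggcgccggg
Wif1: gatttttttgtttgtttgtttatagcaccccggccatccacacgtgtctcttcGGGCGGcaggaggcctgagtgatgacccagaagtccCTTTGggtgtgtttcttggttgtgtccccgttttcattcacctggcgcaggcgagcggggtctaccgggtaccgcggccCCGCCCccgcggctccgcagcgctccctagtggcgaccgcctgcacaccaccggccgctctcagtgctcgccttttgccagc
Nkd2: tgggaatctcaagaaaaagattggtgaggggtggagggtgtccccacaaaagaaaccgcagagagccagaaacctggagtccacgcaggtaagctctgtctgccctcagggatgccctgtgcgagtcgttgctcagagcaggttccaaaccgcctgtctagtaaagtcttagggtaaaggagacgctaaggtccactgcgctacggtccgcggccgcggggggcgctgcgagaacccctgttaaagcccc
Wif1 held 1 CTTTG and 2 GGGCGG boxes, and the other 3 windows held neither. The start used is that of the promoter table. For Wif1 it lies past the start in GENCODE, at 121033960, so the last bases of its window lie inside the gene as GENCODE places it. In their first 250 bases, 21 of the 46 entries of Wnt genes in the promoter table held CTTTG and 32 held GGGCGG. Over all genes, the first 250 bases held CTTTG in 48.6% and GGGCGG in 32.7% of 32851 promoters. The longer TCF/LEF motif CTTTGAA occurred in 4.46% of them, among the Wnt genes in that of Dkk1, and CTTTGAT in 3.21%, among the Wnt genes in those of Sp5, Wnt11 and Wnt5b. These matches describe letters in a short window only.

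Wnt10b, a canonical ligand of growing hair follicles, had the largest difference in log2(FPKM + 1) of the tested ligands in BLM against NORMAL and in EXO against BLM. In EXO against BLM, Wnt5a had the smaller p. As a ratio of mean FPKM, EXO was 0.193 times BLM for Wnt10b and 0.146 times for Wnt5a, so there the order of the 2 turned. Wnt10b had 2.69, 3.77 and 4.06 FPKM in EXO, 24.38, 7.31 and 22.83 FPKM in BLM, and 1.49, 0.73 and 3.83 FPKM in NORMAL. Every BLM library was above every EXO and every NORMAL library. The mean was 3.51 ± 0.722 FPKM in EXO, 18.2 ± 9.44 FPKM in BLM and 2.02 ± 1.62 FPKM in NORMAL (SD, n = 3 each). On the log2(FPKM + 1) scale, which understates changes of low genes, BLM exceeded NORMAL by 2.64 (SE 0.52), with an unadjusted p of 0.00038 and an adjusted p of 0.175 in limma over all 14254 genes. With the replicate number as a block, a pairing that the labels do not state, the adjusted p was 0.0345 and Wnt10b passed the threshold of 0.05. EXO minus BLM was -1.94 (SE 0.52, limma adjusted p = 0.400). Within pairs of libraries that share a number, BLM was 5.96 to 16.4 times NORMAL. Without NORMAL3 the adjusted p of BLM against NORMAL also fell under 0.05, while over its 20 alternative settings it ran from 0.0124 to 1.00. Wnt10b (ENSMUSG00000022996) lies on chromosome 15 at 98770712 to 98778150 in GRCm38, minus strand, and its FPKM sums over its exons.

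Wnt5a, a ligand best known for signaling without β-catenin, showed the same order. It had 0.64, 1.01 and 0.41 FPKM in EXO, 7.43, 2.31 and 4.39 FPKM in BLM, and 0.85, 0.61 and 1.52 FPKM in NORMAL. The BLM libraries overlapped with neither of the other groups. BLM exceeded NORMAL by 1.44 on the log2 scale (SE 0.40, unadjusted p = 0.0040, limma adjusted p = 0.386). EXO minus BLM was -1.67 (SE 0.40, unadjusted p = 0.0015, limma adjusted p = 0.296). All 3 numbered pairs had the same direction in both comparisons. Wnt5a (ENSMUSG00000021994) lies on chromosome 14 at 28504750 to 28527448 in GRCm38, plus strand.

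Wnt3a, a canonical ligand, was the tested ligand that passed the study's thresholds upwards in EXO. It had 3.14, 4.81 and 5.93 FPKM in EXO, 1.97, 0.45 and 1.50 FPKM in BLM, and 2.74, 0.78 and 3.48 FPKM in NORMAL. EXO and BLM did not overlap, and EXO minus BLM was 1.32 (SE 0.45, unadjusted p = 0.014, limma adjusted p = 0.560). Without EXO3 or without BLM2 the unadjusted p no longer met 0.05, with values up to 0.0544 when a library was left out, and without the libraries numbered 2 the difference was 0.98. Wnt3a (ENSMUSG00000009900) lies on chromosome 11 at 59248033 to 59290752, minus strand. Wnt7b, an epidermal ligand, likewise had no overlap, at 7.22, 7.28 and 10.75 FPKM in EXO against 4.87, 1.30 and 4.95 FPKM in BLM. The difference was 1.11 on the log2 scale (SE 0.54, limma adjusted p = 0.751), past the study's thresholds with the replicate block (unadjusted p = 0.0104) and not without it. The lowest values of Wnt3a and Wnt7b were in BLM2 and NORMAL2, which also had the lowest sums of the basal epidermis list. The part of that list in these differences was not tested.

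Wnt4 was the most abundant ligand in every library. It had 27.92, 28.08 and 26.25 FPKM in EXO, 35.24, 11.03 and 28.52 FPKM in BLM, and 20.37, 9.77 and 29.27 FPKM in NORMAL. The 3 groups overlapped. By group mean Wnt3, Wnt10a and Wnt7b came next in EXO and NORMAL, with Wnt10a at 8.78, 9.64 and 15.04 FPKM in EXO, 10.56, 1.91 and 7.97 FPKM in BLM, and 7.53, 1.45 and 7.56 FPKM in NORMAL. Wnt3, which acts in hair and epidermis, had 6.11, 11.12 and 18.86 FPKM in EXO, 4.70, 0.55 and 7.39 FPKM in BLM, and 6.83, 1.40 and 9.34 FPKM in NORMAL, and its EXO minus BLM difference was 1.51 (SE 0.72, limma adjusted p = 0.746). This too passed the study's thresholds with the block (unadjusted p = 0.0113) and not without it. For Wnt10a, EXO minus NORMAL was 1.07 (SE 0.62, limma adjusted p = 0.997), past the same thresholds with the block (unadjusted p = 0.0268, limma adjusted p = 0.656). In each BLM library the second most abundant ligand was Wnt10b.

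As a share of the summed FPKM of all 19 ligands, which does not depend on the scaling of a library, Wnt10b took 4.22%, 5.14% and 4.48% in EXO, 24.3%, 25.7% and 24.5% in BLM, and 2.81%, 3.66% and 5.11% in NORMAL. The share was thus near constant across the 3 BLM libraries although their Wnt10b levels spanned 7.31 to 24.38 FPKM. Wnt5a took 0.452% to 1.38% in EXO, 4.71% to 8.12% in BLM and 1.60% to 3.06% in NORMAL. Wnt4 took 29.0% to 43.8% in EXO, 30.6% to 38.8% in BLM and 38.4% to 49.0% in NORMAL. Shares sum to the whole, so a higher share of Wnt10b lowers the others, and no test was run on them.

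**Figure D2:**
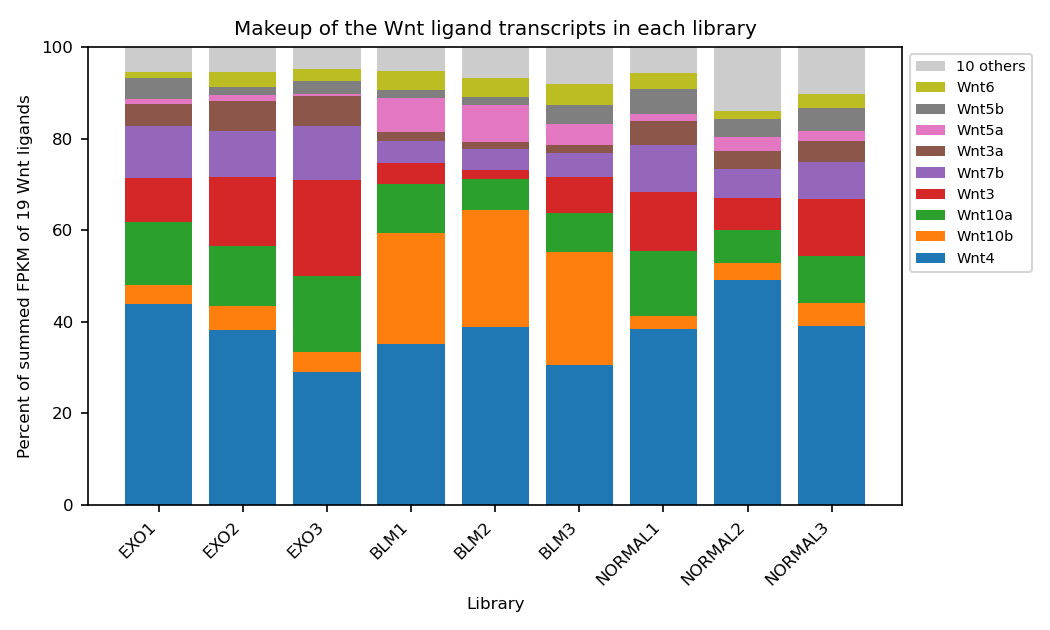
Percent of the summed FPKM of 19 Wnt ligands (y axis) taken by each ligand, stacked, in each of the 9 libraries. The Wnt10b segment is 24.3% to 25.7% in BLM, against 4.22% to 5.14% in EXO and 2.81% to 5.11% in NORMAL, and Wnt4 is the largest segment throughout.

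The paralogs of these ligands did not share their order. The ratio of Wnt10b to Wnt10a within a library was 0.306, 0.391 and 0.270 in EXO, 2.31, 3.83 and 2.86 in BLM, and 0.198, 0.503 and 0.507 in NORMAL. The ratio of Wnt5a to Wnt5b was 0.218, 0.765 and 0.164 in EXO, 4.32, 4.71 and 1.16 in BLM, and 0.300, 0.782 and 0.401 in NORMAL. In both pairs the ratio was above 1 in all 3 BLM libraries and below 1 in the other 6. These pairs were chosen after their values were seen, and the ratios are a description without a test. Neighbors on the chromosome also differed in level: Wnt1, 11.7 kb from Wnt10b on chromosome 15, was listed at 0 in all 9 libraries, whereas Wnt6, 6.19 kb from Wnt10a on chromosome 1, had 0.76 to 2.43 FPKM in EXO, 1.17 to 4.17 FPKM in BLM and 0.36 to 2.26 FPKM in NORMAL. Wnt9b, 24.3 kb from Wnt3 on chromosome 11, stayed at or under 0.07 FPKM.

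**Figure D3:**
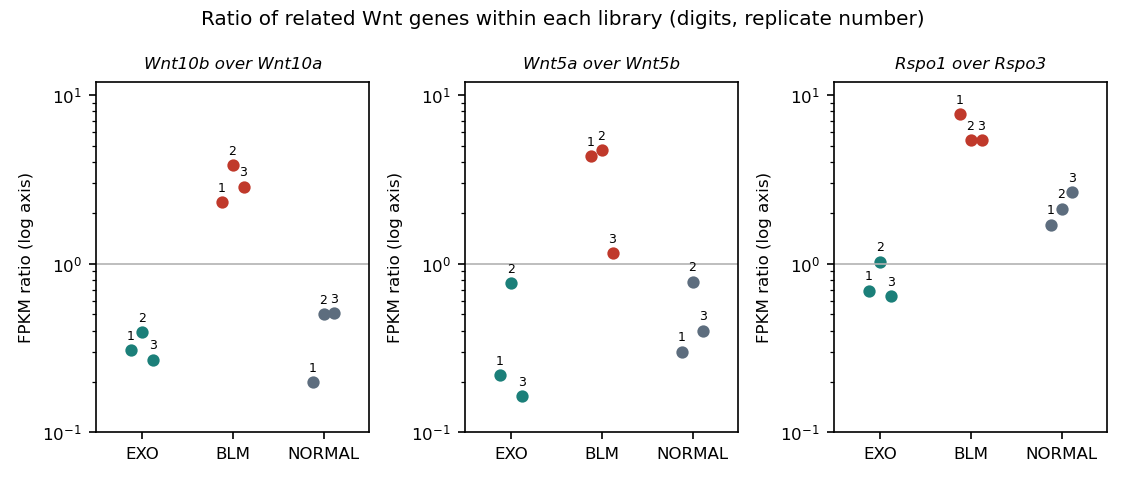
Ratio of FPKM between related genes within each library (y axis, log scale), for Wnt10b over Wnt10a, Wnt5a over Wnt5b and Rspo1 over Rspo3, with a point per library and its replicate number. The 3 BLM points lie at 2.31 to 3.83, 1.16 to 4.71 and 5.38 to 7.69, above all EXO and NORMAL points in each panel.

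Ligands under the filter included Wnt8a, which had 0.13, 0 and 0.15 FPKM in EXO and 0.80, 0.57 and 1.16 FPKM in BLM, and was listed at 0 in all 3 NORMAL libraries. The BLM levels are an estimated 13 to 43 fragments. No test was run on it, and an exact permutation test of 3 against 3 could not go below 0.1. Wnt2, Wnt2b, Wnt7a, Wnt8b and Wnt16 peaked at 0.12 to 2.15 FPKM in any library. The tested ligands Wnt5b, Wnt6, Wnt9a and Wnt11 passed no threshold in any comparison. Wnt5b had 1.32 to 2.94 FPKM in EXO, 0.49 to 3.80 FPKM in BLM and 0.78 to 3.79 FPKM in NORMAL, and Wnt9a had 0.54 to 1.59 FPKM in EXO, 0.56 to 1.65 FPKM in BLM and 0.41 to 1.47 FPKM in NORMAL. Wnt11, which acts on cell movement, had 0.88, 0.24 and 0.89 FPKM in EXO, 3.28, 0.17 and 4.45 FPKM in BLM, and 0.97, 0.41 and 5.02 FPKM in NORMAL. Its groups overlapped, since NORMAL3 was the highest and BLM2 the lowest library.

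All 10 Frizzled receptors were expressed and tested, and Fzd1 and Fzd7 had the highest group means, at 15.59 to 34.24 FPKM in EXO, 7.41 to 24.28 FPKM in BLM and 5.31 to 36.73 FPKM in NORMAL. Fzd4 was the highest of the 10 in NORMAL1 and NORMAL2. The groups of Fzd1 and Fzd7 overlapped, and the log2 difference of BLM from NORMAL was 0.21 for Fzd1 (SE 0.63) and 0.19 for Fzd7 (SE 0.59). In EXO against BLM, 9 of the 10 had positive log2 differences, as had 9805 of all 14254 genes tested. The median of the 10 was 0.50, beside 0.22 over all genes, and none of the 10 passed a threshold. Fzd10 had 3.74, 7.58 and 13.04 FPKM in EXO, 8.43, 2.12 and 12.15 FPKM in BLM, and 2.89, 1.37 and 5.11 FPKM in NORMAL. Its EXO minus NORMAL difference was 1.11 (SE 0.61, limma adjusted p = 0.997), past the study's thresholds with the block (unadjusted p = 0.0264, limma adjusted p = 0.656). Fzd6, a receptor that orients hairs, had 2.17, 12.43 and 22.55 FPKM in EXO, 2.01, 3.96 and 16.00 FPKM in BLM, and 5.34, 2.56 and 25.51 FPKM in NORMAL, a wide spread inside each group. Fzd2 lay between 1.56 and 15.70 FPKM, and Fzd3, Fzd5 and Fzd8 between 0.31 and 5.89 FPKM, over the 9 libraries. The co-receptors Lrp5 and Lrp6 also passed none, and together spanned 0.63 to 7.03 FPKM over the 9 libraries.

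Fzd4, a receptor known from blood vessel growth, was lower in BLM than in NORMAL at the thresholds of the study. It had 12.42, 3.24 and 8.19 FPKM in EXO, 4.85, 2.61 and 5.56 FPKM in BLM, and 18.77, 10.37 and 8.05 FPKM in NORMAL. BLM and NORMAL did not overlap, and EXO spanned both. BLM minus NORMAL was -1.29 (SE 0.50, unadjusted p = 0.026, limma adjusted p = 0.644). Fzd9 had 3.26, 1.28 and 1.36 FPKM in EXO, 1.10, 0.57 and 0.59 FPKM in BLM, and 5.38, 3.35 and 1.09 FPKM in NORMAL. NORMAL3 lay just under BLM1, so these groups overlapped, and BLM minus NORMAL was -1.16 (SE 0.45, unadjusted p = 0.026, limma adjusted p = 0.644). Fzd4 left the thresholds without BLM2 or NORMAL1, and Fzd9 without BLM2, BLM3, NORMAL1 or NORMAL2, with unadjusted p up to 0.113 and 0.118 when a library was left out. Without the libraries numbered 2 both left them, at 0.0559 for Fzd4 and 0.140 for Fzd9. For both genes the 3 highest libraries were NORMAL1, NORMAL2 and EXO1, which were also the 3 highest in the summed skeletal muscle list, at 61176, 42280 and 42284 FPKM against 6122 to 12795 FPKM in the other 6. The endothelium list (5 of 5 found) summed to 1.63 to 14.89 FPKM in EXO, 4.97 to 16.44 FPKM in BLM and 2.00 to 7.62 FPKM in NORMAL. The part of muscle or of endothelium in these differences was not tested. Fzd4 (ENSMUSG00000049791) lies on chromosome 7 at 89404355 to 89413134, plus strand, and Fzd9 (ENSMUSG00000049551) on chromosome 5 at 135248938 to 135251230, minus strand.

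Of the R-spondins, Rspo1 showed the order of Wnt10b. It had 0.97, 2.85 and 2.02 FPKM in EXO, 7.00, 4.21 and 10.81 FPKM in BLM, and 1.55, 1.33 and 2.83 FPKM in NORMAL. The BLM libraries overlapped with neither of the other groups. BLM exceeded NORMAL by 1.48 on the log2 scale (SE 0.43, unadjusted p = 0.0056, limma adjusted p = 0.424). EXO minus BLM was -1.48 (SE 0.43, unadjusted p = 0.0056, limma adjusted p = 0.449), and EXO and NORMAL means were 1.95 ± 0.942 and 1.90 ± 0.810 FPKM (SD, n = 3 each). Rspo1 (ENSMUSG00000028871) lies on chromosome 4 at 124986430 to 125009099, plus strand.

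Rspo3, the other R-spondin above the filter, did not follow. It had 1.40, 2.77 and 3.15 FPKM in EXO, 0.91, 0.78 and 2.01 FPKM in BLM, and 0.91, 0.63 and 1.07 FPKM in NORMAL. Its highest values were in EXO, where the ratio of Rspo1 to Rspo3 was 0.693, 1.03 and 0.641, against 7.69, 5.40 and 5.38 in BLM and 1.70, 2.11 and 2.64 in NORMAL. Rspo2, a hair follicle R-spondin in mice, had 0.03, 0 and 0 FPKM in EXO and 0.41, 0.39 and 0.78 FPKM in BLM, and was listed at 0 in all NORMAL libraries. The BLM values are an estimated 17 to 55 fragments, and the gene was too low to be tested. Rspo4 had 0.27 to 0.35 FPKM in EXO, 0.25 to 2.30 FPKM in BLM and 0 to 0.33 FPKM in NORMAL.

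Among the secreted antagonists, Wif1, which binds Wnt ligands directly, was the gene that passed the study's thresholds without the replicate block. It had 1.66, 1.81 and 4.13 FPKM in EXO, 9.61, 2.81 and 21.97 FPKM in BLM, and 0.84, 0.33 and 2.69 FPKM in NORMAL. Every BLM library was above every NORMAL library, whereas EXO3 was above BLM2. BLM exceeded NORMAL by 2.23 (SE 0.64, unadjusted p = 0.0049, limma adjusted p = 0.410), and with the replicate number as a block the adjusted p was 0.0440, past the threshold. BLM was 11.4, 8.52 and 8.17 times NORMAL in the numbered pairs, an even ratio across libraries whose levels differed widely. EXO minus BLM was -1.53 (SE 0.64, unadjusted p = 0.035, limma adjusted p = 0.692), with EXO lower in all 3 pairs. Without BLM1, BLM3, EXO1 or EXO2, this left the thresholds of the study, with unadjusted p up to 0.160. It also left them after rescaling to the same total (0.0981), after rescaling without mitochondrial, ribosomal and muscle transcripts (0.0532), with a pseudocount of 0.1 (0.0536) and with no filter (0.0521). Wif1 (ENSMUSG00000020218) lies on chromosome 10 at 121033960 to 121100650, plus strand.

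The other antagonists passed no threshold without the block. Sfrp1, the most abundant of the secreted Frizzled-related proteins, had 11.12, 14.05 and 24.83 FPKM in EXO, 12.79, 3.94 and 36.95 FPKM in BLM, and 5.97, 2.81 and 30.11 FPKM in NORMAL. Its groups overlapped. Sfrp2 and Sfrp4, made by fibroblasts, had 0.90 to 7.00 FPKM in EXO, 0.53 to 7.59 FPKM in BLM and 1.23 to 3.75 FPKM in NORMAL, and Sfrp5 stayed at or under 0.98 FPKM. Dkk3 had 7.31, 12.35 and 20.24 FPKM in EXO, 8.44, 4.24 and 14.14 FPKM in BLM, and 3.73, 2.09 and 16.70 FPKM in NORMAL. Its EXO minus NORMAL difference was 1.06 (SE 0.66, limma adjusted p = 0.997), and with the block it passed the study's thresholds (unadjusted p = 0.0252, limma adjusted p = 0.656). Dkk2, which binds LRP co-receptors, had 1.04, 2.72 and 1.38 FPKM in EXO against 0.37, 0.57 and 0.37 FPKM in BLM, without overlap, and its log2 difference was 0.87 (SE 0.46, limma adjusted p = 0.771). Dkk4 was listed at 0 except in BLM1 (0.43 FPKM) and BLM3 (0.47 FPKM). Notum, an enzyme that removes the lipid of Wnt proteins, had 1.33, 2.03 and 14.93 FPKM in EXO, 3.31, 0.93 and 3.18 FPKM in BLM, and 0.92, 0.77 and 4.49 FPKM in NORMAL.

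β-catenin transcripts differed between the groups by less than their spread. Ctnnb1 had 53.28, 64.86 and 98.62 FPKM in EXO, 82.09, 43.93 and 99.33 FPKM in BLM, and 45.25, 48.19 and 137.58 FPKM in NORMAL. The groups overlapped widely, and the log2 difference was 0.08 (SE 0.52) for BLM minus NORMAL and -0.02 (SE 0.52) for EXO minus BLM (limma adjusted p = 0.994 and 0.999). The sign of both turned under other scalings and when single libraries were left out. The study assayed β-catenin and LEF1 as proteins in fibroblasts, which transcripts of whole skin do not measure. Ctnnb1 (ENSMUSG00000006932) lies on chromosome 9 at 120929216 to 120960507, plus strand.

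Lef1, the partner of β-catenin that marks the hair matrix, was low and uneven. It had 0.16, 0.11 and 1.06 FPKM in EXO, 1.08, 0.36 and 8.58 FPKM in BLM, and 0.14, 0 and 1.63 FPKM in NORMAL. BLM3 stood far above the rest, and NORMAL3 was above BLM1. BLM minus NORMAL was 1.06 (SE 0.66, limma adjusted p = 0.801), and EXO minus BLM was -1.12 (SE 0.66, limma adjusted p = 0.787). The direction was the same in all 3 numbered pairs of each comparison, and with the block both differences passed the study's thresholds (unadjusted p = 0.0163 and 0.0125). On the log2(FPKM + 1) scale they rest largely on BLM3: without it they were 0.22 (unadjusted p = 0.656 in limma) and -0.28 (0.574). As ratios of FPKM, BLM was 7.71 times NORMAL in the pair numbered 1 and 5.26 times in that numbered 3. EXO was 0.148, 0.306 and 0.124 times BLM in the numbered pairs. Several of these levels lie under 1 FPKM, where adding 1 shrinks the differences. Tcf7, another partner of β-catenin, had 1.85 to 4.71 FPKM in EXO, 2.06 to 5.86 FPKM in BLM and 0.25 to 5.13 FPKM in NORMAL. BLM minus NORMAL was 1.08 (SE 0.59, limma adjusted p = 0.746), past the study's thresholds with the block (unadjusted p = 0.0194) and not without it. Tcf7l1 and Tcf7l2, which also bind β-catenin, passed no threshold. Tcf7l1 had 2.84 to 5.14 FPKM in EXO, 4.04 to 9.38 FPKM in BLM and 1.66 to 13.94 FPKM in NORMAL, and Tcf7l2 had 0.40 to 2.66 FPKM in EXO, 1.17 to 1.47 FPKM in BLM and 0.43 to 4.02 FPKM in NORMAL. Lef1 (ENSMUSG00000027985) lies on chromosome 3 at 131110471 to 131224356, plus strand.

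Of the feedback and target genes, 5 were tested. Their log2 differences were positive in 5 of 5 in BLM against NORMAL (median 0.52), in 2 of 5 in EXO against BLM (median -0.31) and in 5 of 5 in EXO against NORMAL (median 0.46), where the medians over all genes were -0.03, 0.22 and 0.17. Of all 14254 genes, 6748, 9805 and 9550 were positive in these comparisons. Axin2, a feedback inhibitor widely used as a readout of canonical Wnt signaling, had 1.61, 2.26 and 13.03 FPKM in EXO, 3.82, 2.29 and 5.61 FPKM in BLM, and 1.37, 1.08 and 6.15 FPKM in NORMAL. The highest value was in EXO3, the library with the highest Notum. The log2 difference was 0.52 (SE 0.67) for BLM minus NORMAL and 0.06 (SE 0.67) for EXO minus BLM (limma adjusted p = 0.954 and 0.996). Without EXO3 the second difference became -0.69. Axin2 (ENSMUSG00000000142) lies on chromosome 11 at 108920349 to 108950783, plus strand.

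Nkd2, an inhibitor that binds Dishevelled, differed more. It had 2.67, 5.87 and 4.97 FPKM in EXO, 27.43, 7.07 and 22.76 FPKM in BLM, and 1.94, 1.24 and 13.37 FPKM in NORMAL. All EXO libraries were below all BLM libraries, whereas NORMAL3 was above BLM2. BLM minus NORMAL was 1.95 (SE 0.71, unadjusted p = 0.018, limma adjusted p = 0.607), and EXO minus BLM was -1.73 (SE 0.71, unadjusted p = 0.032, limma adjusted p = 0.683). Nkd2 left the thresholds of the study in BLM against NORMAL without BLM1, BLM3, NORMAL1 or NORMAL2 (unadjusted p up to 0.0716), and in EXO against BLM without BLM1, BLM3, EXO1 or EXO3 (up to 0.114), after rescaling to the same total and with no filter. Nkd2 (ENSMUSG00000021567) lies on chromosome 13 at 73818534 to 73847631, minus strand. Its paralog Nkd1 had 0.82 to 1.60 FPKM in EXO, 1.25 to 2.34 FPKM in BLM and 0.50 to 1.95 FPKM in NORMAL.

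Ccnd1, the cyclin of the G1 phase, had 23.17, 29.82 and 28.68 FPKM in EXO, 44.57, 25.50 and 48.15 FPKM in BLM, and 15.45, 11.82 and 18.33 FPKM in NORMAL. Both EXO and BLM were above NORMAL in every library. BLM minus NORMAL was 1.29 (SE 0.38, unadjusted p = 0.0058, limma adjusted p = 0.427), a difference that was 0.99 with an unadjusted p of 0.115 after rescaling to the same total. EXO minus BLM was -0.47 (SE 0.38, limma adjusted p = 0.828), with BLM2 below EXO2 and EXO3. Myc, another known target, overlapped between all groups at 7.00 to 21.82 FPKM in EXO and BLM and 6.59 to 13.68 FPKM in NORMAL. Ccnd1 (ENSMUSG00000070348) lies on chromosome 7 at 144929931 to 144939925, minus strand. The other target, Sp5, did not exceed 0.15 FPKM.

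**Figure D4:**
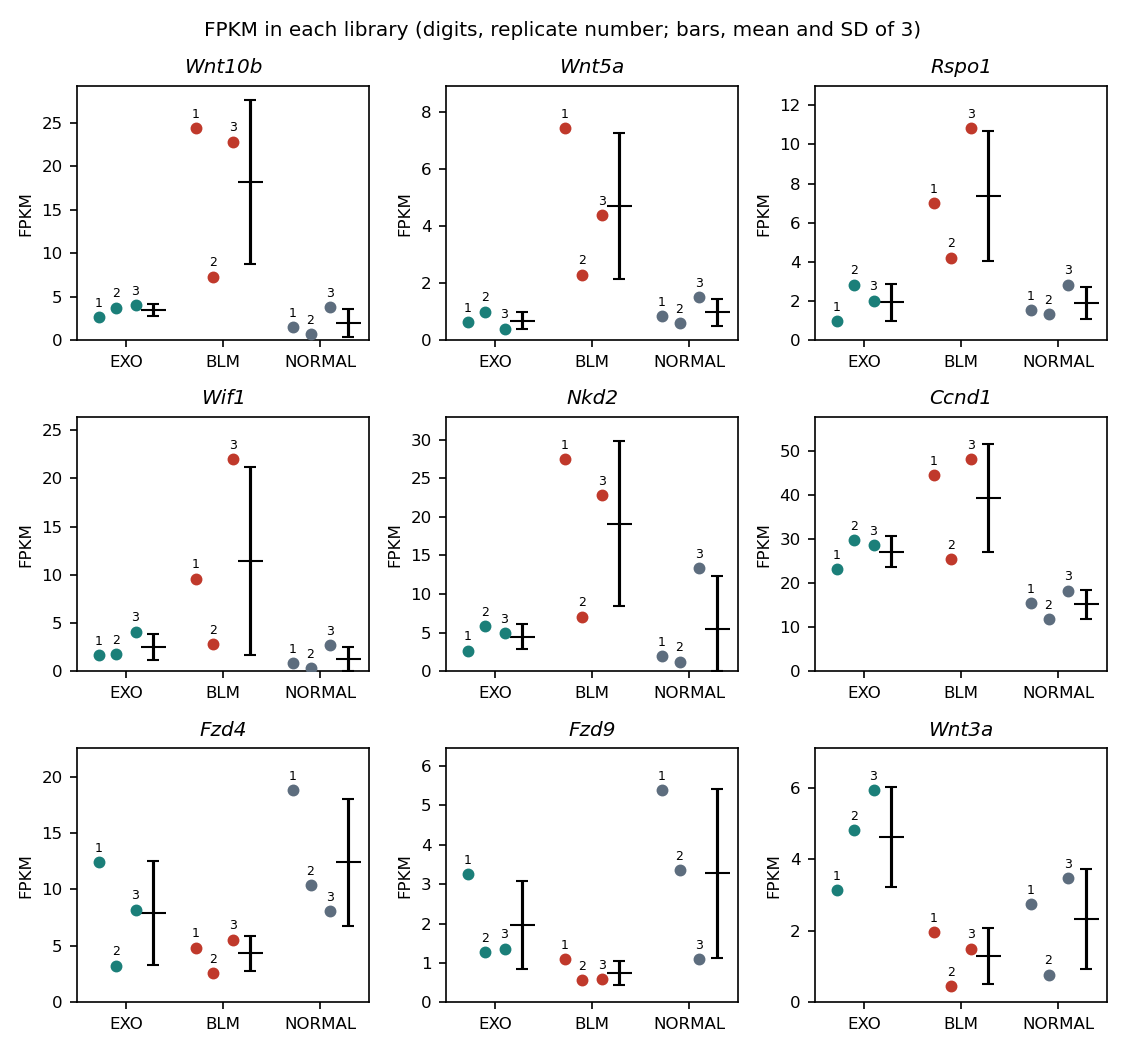
FPKM of 9 Wnt genes in each library (points, with the replicate number) by group, with the mean and SD of 3 libraries beside them (SD bars stop at 0). BLM stands above EXO and NORMAL for Wnt10b (7.31 to 24.38 FPKM in BLM), Wnt5a and Rspo1 without overlap, while Fzd4 is lower in BLM than in NORMAL and Wnt3a higher in EXO than in BLM.

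Over the whole family, BLM was set against NORMAL to ask which Wnt genes moved with the bleomycin model. By limma's adjusted p, 0 of 42 genes were called, where 0.0140% of all genes were, and 8 of the 42 had an unadjusted p under 0.05, where 7.37% of all genes did. With the replicate block, Wnt10b and Wif1 were called, 2 of 42, where 0.421% of all genes were. The study required an absolute log2 change above 1 with an unadjusted p under 0.05. At these, 6 of 42 genes (14.3%) were higher in BLM, namely Wnt5a, Wnt10b, Rspo1, Wif1, Nkd2 and Ccnd1, where 2.88% of all genes were. Fzd4 and Fzd9 were lower, 2 of 42, where 3.02% of all genes were. With the block 8 were higher, Lef1 and Tcf7 being added, where 3.87% of all genes were, and the same 2 were lower, where 4.55% were. No overlap with all BLM libraries higher was found in 5 of 42 genes against 2.87% of all genes, and with all BLM libraries lower in 1 of 42, Fzd4, against 7.52%. Of the 42 genes, 29 had positive and 13 negative log2 differences, where 6748 of all 14254 genes were positive and 7506 negative. The median log2 difference was -0.03 over all genes and 0.24 over the 42. Its sign turned without BLM3 (-0.02) or without NORMAL2 (-0.13). Without NORMAL1 the thresholds held 5 genes, where 3.33% of all genes met them.

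EXO was set against BLM to ask what differed after the vesicles. Again 0 of 42 genes were called by limma's adjusted p, where 0.0140% of all genes were, and 0 with the block, where 0.0772% were, while 6 of 42 had an unadjusted p under 0.05, where 6.84% of all genes did. At the thresholds of the study, 5 of 42 (11.9%) were lower in EXO, namely Wnt5a, Wnt10b, Rspo1, Wif1 and Nkd2, where 2.27% of all genes were. Wnt3a was higher, 1 of 42, where 3.03% of all genes were. With the block 6 were lower, Lef1 being added, where 2.89% of all genes were, and 3 were higher, namely Wnt3, Wnt3a and Wnt7b, where 4.81% were. After rescaling to the same total, 2 were higher and 3 lower, and after quantile normalization 2 and 5. Counting both directions, 5.61% and 5.36% of all genes met the thresholds under these scalings. All EXO libraries were lower in 4 of 42 genes against 2.66% of all genes, and higher in 5 of 42 (11.9%), namely Wnt3a, Wnt7b, Fzd3, Fzd9 and Dkk2, against 11.4%, which is the background. The median log2 difference was 0.18 over the 42 genes and 0.22 over all genes, and that of the 42 turned to -0.19 without BLM2 and to -0.08 without EXO3. Both comparisons use the same BLM libraries, so a value that is high in BLM moves them in opposite directions, and the agreement of their gene lists is not a separate result.

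**Figure D5:**
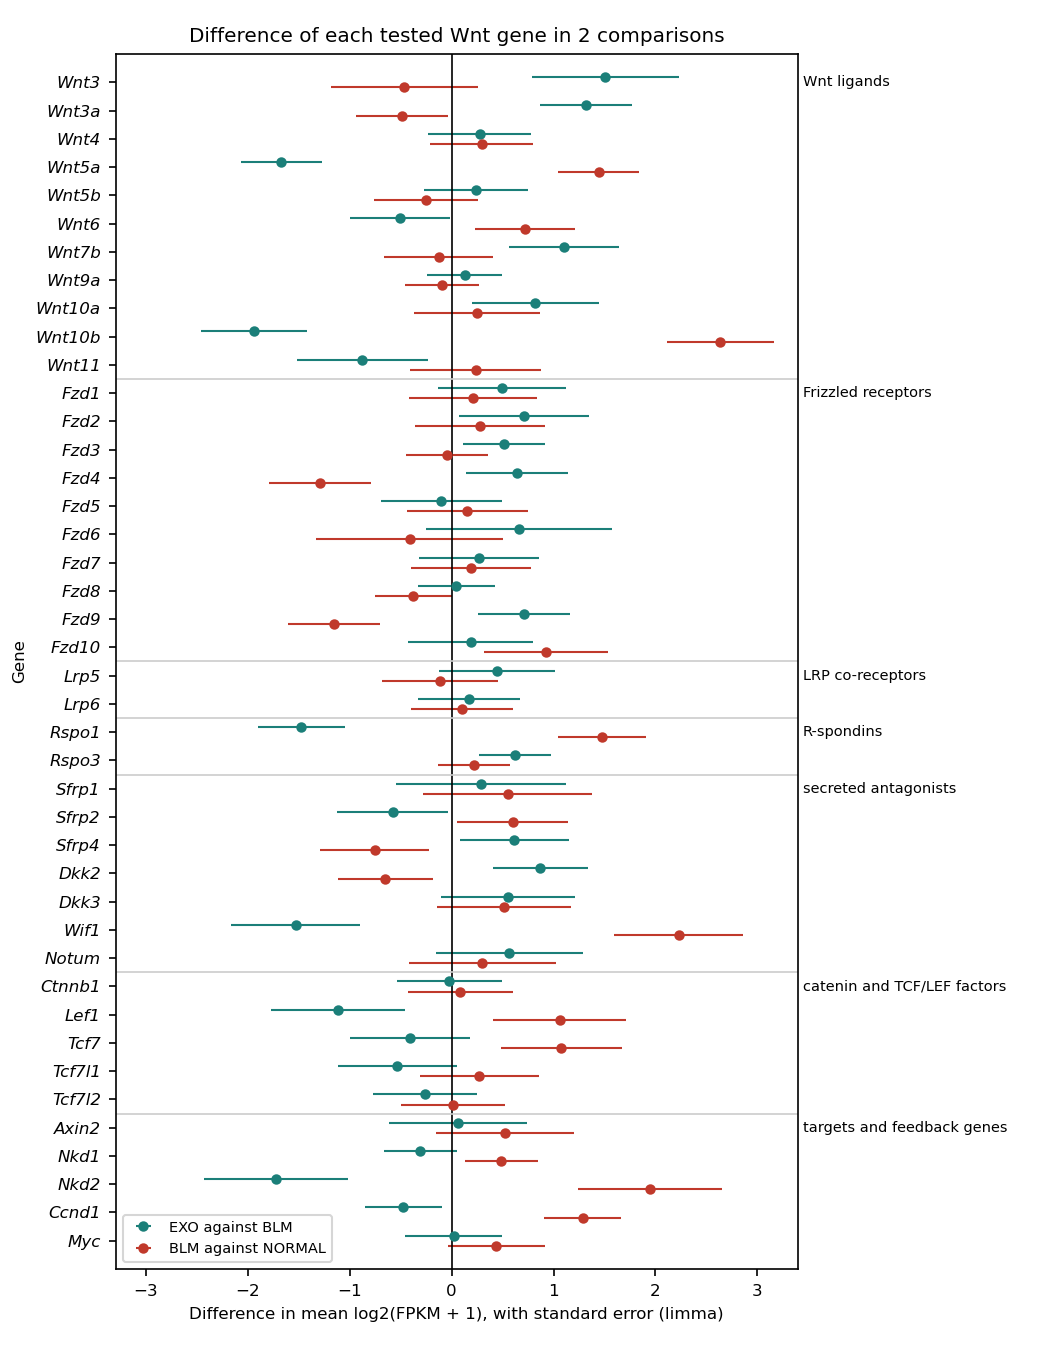
Difference in mean log2(FPKM + 1) for each of the 42 tested Wnt genes (points), with limma's standard error (bars), for EXO against BLM and BLM against NORMAL. Wnt5a, Wnt10b, Rspo1, Wif1 and Nkd2 lie beyond 1 in BLM against NORMAL and beyond -1 in EXO against BLM, and Ctnnb1 lies near 0 in both.

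In EXO against NORMAL, 0 of 42 genes were called by limma's adjusted p with or without the block, where 0% and 0.0210% of all genes were. At the thresholds of the study 0 of 42 were higher, where 1.32% of all genes were, and 0 lower, where 0.393% were. With the block, Wnt10a, Fzd10 and Dkk3 were higher at these thresholds, 3 of 42, where 2.83% of all genes were, and 0 were lower, where 0.603% were. In the fit without the block, 1 of 42 genes had an unadjusted p under 0.05, where 2.33% of all genes did. It was Rspo3, which was 0.85 higher on the log2 scale (SE 0.35, unadjusted p = 0.035, limma adjusted p = 0.997). All EXO libraries were above all NORMAL libraries for Wnt7b, Wnt10a, Rspo3 and Ccnd1, 4 of 42 against 4.58% of all genes, and below them for 0 of 42 against 0.989%. The median log2 difference was 0.30 over the 42 genes and 0.17 over all genes. Without NORMAL3 the median was 0.87 over the 41 genes then tested and 0.35 over all genes, and 8 of the 41 met the thresholds of the study, where 9.91% of all genes did.

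Hair matrix, melanocyte and cell cycle markers were higher in BLM beside Wnt10b, Wnt5a, Rspo1, Wif1 and Nkd2. The hair matrix genes had a median log2 difference of 2.38 in BLM against NORMAL and -2.66 in EXO against BLM, and 10 of the 10 were higher in BLM in both. Melanocyte markers (5 of 5 found) summed to 2.44 to 6.09 FPKM in EXO, 16.2 to 176 FPKM in BLM and 0.880 to 4.55 FPKM in NORMAL. In NORMAL3 the hair matrix sum (173 FPKM) was above that in BLM2 (82.6 FPKM), as were Nkd2 and Lef1. Of that list, Dlx3, Hoxc13, Foxn1, Msx2, Krt35, Krt31 and Tchh were higher in NORMAL3 than in BLM2. Shh (0.22 against 5.74 FPKM), Msx1 (2.71 against 2.89 FPKM) and Dlx4 (0.64 against 1.06 FPKM) were lower. The melanocyte sum (4.55 against 16.2 FPKM) and the cell cycle sum (46.9 against 61.0 FPKM) were lower too. So were Wnt10b, Wnt5a, Rspo1 and Wif1, which follows from their lack of overlap between BLM and NORMAL. Dermal papilla markers (8 of 8 found), from the mesenchyme at the base of the follicle, summed to 23.3 to 73.2 FPKM in EXO, 26.9 to 57.9 FPKM in BLM and 5.18 to 22.3 FPKM in NORMAL. Crabp1 made up most of these sums, with 67.69 FPKM in EXO3 and 38.70 FPKM in BLM3. Of the 5 genes of the list that were tested, 5 were higher in BLM against NORMAL (median log2 difference 1.03). In EXO against BLM 1 of the 5 was higher (median -0.81). The part of these markers in the results was not tested.

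Of 66 other genes of the pathway, 57 were tested and 0 were called by limma's adjusted p in any comparison, with or without the block, while 4, 2 and 1 had an unadjusted p under 0.05 in BLM against NORMAL, EXO against BLM and EXO against NORMAL, where 7.37%, 6.84% and 2.33% of all genes did. In BLM against NORMAL 2 were higher at the study's thresholds, where 2.88% of all genes were. Kremen2, a receptor for DKK proteins, had 2.60, 2.79 and 3.62 FPKM in EXO, 11.88, 2.70 and 8.36 FPKM in BLM, and 1.28, 0.43 and 2.10 FPKM in NORMAL. Its BLM minus NORMAL difference was 1.82 (SE 0.49, limma adjusted p = 0.386). Ror2, a receptor of WNT5A, had 0.58, 0.99 and 1.38 FPKM in EXO, 3.74, 1.06 and 4.97 FPKM in BLM, and 0.45, 0.29 and 2.22 FPKM in NORMAL. Its BLM minus NORMAL difference was 1.09 (SE 0.48, limma adjusted p = 0.674). The groups of BLM and NORMAL overlapped in Ror2, and not in Kremen2. Shisa2, which retains Frizzled proteins inside the cell, was lower at these thresholds, 1 of 57, where 3.02% of all genes were. It had 24.67, 12.52 and 18.94 FPKM in EXO, 10.25, 4.63 and 12.74 FPKM in BLM, and 24.09, 13.94 and 33.46 FPKM in NORMAL, and BLM minus NORMAL was -1.30 (SE 0.47, limma adjusted p = 0.608). In EXO, Lgr6, an R-spondin receptor of skin stem cells, had 7.89, 13.10 and 27.10 FPKM, against 5.86, 1.99 and 8.00 FPKM in BLM and 5.52, 1.74 and 7.74 FPKM in NORMAL. Its difference from BLM was 1.42 (SE 0.60, limma adjusted p = 0.699) and from NORMAL 1.50 (SE 0.60, limma adjusted p = 0.997). In both it was the 1 of 57 that was higher at the study's thresholds, where 3.03% and 1.32% of all genes were. Igfbp4, a secreted protein that can bind Frizzled and LRP6, had 12.02, 23.90 and 6.65 FPKM in EXO against 25.07, 30.51 and 70.89 FPKM in BLM, a difference of -1.52 (SE 0.65, limma adjusted p = 0.699). It was the 1 of 57 that was lower in EXO than in BLM at these thresholds, where 2.27% of all genes were. The median over the 57 was 0.10, 0.10 and 0.23 in the 3 comparisons in the order given above. Of the 15 tested genes of Dishevelled and of the complex that degrades β-catenin, 0 had an unadjusted p under 0.05 in any comparison (limma), and their log2 differences lay between -0.44 and 0.56.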

How the data were processed

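Polyadenylated RNA of skin had been sequenced in pairs from strand-specific libraries. FPKM values are the authors' own, deposited for 55382 genes in 9 libraries. The submitters' processing notes name cutadapt (no version), HISAT2 2.0.4, StringTie 1.3.4d and the build mm9. FPKM holds no counts and divides by each library's total, so an abundant class lowers all other genes, and StringTie can split fragments between similar genes. Of the identifiers, 99.6% were found in GENCODE M21, the source of the GRCm38 coordinates. Depth was estimated from the step of low FPKM values of 7576 pseudogenes and is uncertain by a factor of 2, so values of a few fragments are imprecise.

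Genes with at least 1 FPKM in 3 or more libraries were fitted as log2(FPKM + 1), all 9 libraries in 1 model, with limma 3.58.1 (R 4.3.3) and a mean-variance trend. P-values were adjusted over all 14254 genes by Benjamini-Hochberg at 0.05. Groups follow the sample labels. After group means were removed, libraries of the same number correlated at 0.173 to 0.679 (9 pairs) and those of different numbers at -0.547 to 0.203 (18 pairs). These ranges overlapped. Removing group means also pushes values of different numbers down where those of the same number are above 0. That the numbers pair the libraries was read from these same data and not from the labels, and it is not established. Results with the replicate block rest on it. Every member is given by its level in each library or by a range, alone or with related members. The rule for statistics was a threshold passed, plus Ctnnb1, Lef1 and Axin2, and a few other members are given with theirs. The members, lists and tests were chosen with earlier results of these data known. Alternatives were rescaling to the same total (also without mitochondrial, ribosomal and muscle transcripts), quantile and median-ratio scaling, adding 0.1 in place of 1, dropping the filter or setting it at 5 FPKM, no trend, only the 6 libraries compared, the replicate block, leaving out each library and leaving out those numbered 2. The fit was also run on simulated data with independent noise of the same size in every gene. These held no pairing and no effect shared within a library, so that run cannot show how the fit behaves on these libraries. Tables were handled in Python 3.11.15 with pandas 2.3.3, numpy 2.4.6 and matplotlib 3.10.9.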

Additional observations from a re-analysis of the deposited data

How the results depend on the processing

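Rescaling to the same total moved the median of all genes from -0.03 to -0.24 in BLM against NORMAL and from 0.22 to 0.45 in EXO against BLM. In BLM against NORMAL, 2 Wnt genes were called with quantile normalization (Wnt10b, Ccnd1), 2 with median-ratio scaling and 2 with the replicate block. Of all genes, 0.407%, 0.525% and 0.421% were called under these settings. Leaving out each library gave 0 to 1 Wnt genes, with Wnt10b called without NORMAL3, where 0.945% of all genes were. At the thresholds of the study, 4 genes were counted with the filter at 5 FPKM, which tests 21 of the 42, and 5 (without NORMAL1) to 11 (without NORMAL3) with a library left out. Of all genes, 6.36% met these thresholds with that filter, 3.33% without NORMAL1 and 14.8% without NORMAL3. In EXO against BLM, 2 Wnt genes were called with quantile normalization, 1 with median-ratio scaling and 0 with the block. At the study's thresholds 2 were counted with the filter at 5 FPKM and 9 with the block. The shares of all genes called were 0.253%, 0.248% and 0.0772%, and those at the study's thresholds 5.32% and 7.7%. In EXO against NORMAL the study's thresholds held 1 gene with a pseudocount of 0.1, 3 with the replicate block and 0 to 8 with a library left out (8 without NORMAL3). Of all genes they held 2.01% with that pseudocount, 3.44% with the block and 9.91% without NORMAL3. The median of EXO against NORMAL was 0.67 with the filter at 5 FPKM and 0.10 to 0.87 with a library left out. The median of BLM against NORMAL was 0.02 after rescaling to the same total, and -0.13 (without NORMAL2) to 0.76 (without NORMAL3) with a library left out, and that of EXO against BLM -0.19 (without BLM2) to 0.44. It was -0.01 with quantile normalization and -0.02 with median-ratio scaling. Depth limits low genes: Wnt8a, Rspo2 and Dkk4 rest on an estimated 12 to 55 fragments in the BLM libraries that list them above 0. The block changed no call of a member at the adjusted p other than Wnt10b and Wif1. In BLM against NORMAL, Wnt10b, Wnt5a, Rspo1 and Wif1 stayed at the study's thresholds under every alternative run that tested them, as did Wnt10b, Wnt5a and Rspo1 in EXO against BLM.

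Directions near 0 turned. Ctnnb1 in BLM against NORMAL was -0.22 rescaled to the same total, -0.068 rescaled without mitochondrial, ribosomal and muscle transcripts, and -0.20 to 0.60 with a library left out (below 0 without BLM1, BLM3, NORMAL1 or NORMAL2). In EXO against BLM it was 0.31 and 0.075 under the same rescalings, and -0.37 to 0.21 with a library left out. In EXO against NORMAL it was -0.22 with median-ratio scaling, -0.12 without the libraries numbered 2, and -0.22 to 0.57 with a library left out. Axin2 in EXO against BLM was -0.11 with quantile normalization, -0.16 with median-ratio scaling, -0.0046 with a pseudocount of 0.1, and -0.69 (without EXO3) to 0.52 with a library left out, and in EXO against NORMAL it was -0.17 (without EXO3) to 1.15. Lef1 in EXO against NORMAL was 0.20 with a pseudocount of 0.1 and -0.35 to 0.37 with a library left out. The cause of these changes was not tested.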
